A study of Mus musculus with 9 samples.

Results

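The PDGF ligands and receptors form a family of 6 genes, Pdgfa, Pdgfb, Pdgfc, Pdgfd, Pdgfra and Pdgfrb, which were selected by name among the 19348 gene rows of the count table, and all 6 were found and passed the filter on low counts. RNA-seq reads were counted per gene in 9 libraries of reporter-sorted lung cells, 3 per population. Every mouse was C57BL/6J with the genotype Col1_GFP;Foxf1_tdTomato, so the populations share both transgenes and were separated by which reporters the cells showed. DBL cells were positive for the type 1 collagen reporter and the Foxf1 reporter (replicates 1, 3 and 4). TDonly cells showed the Foxf1 reporter without the collagen reporter (replicates 1, 2 and 3). ColGFP cells showed the collagen reporter without the Foxf1 reporter (replicates 1, 2 and 3). The sources used here give no age, sort gate or promoter for the reporters and do not say whether replicates came from separate mice or pools, so p-values measure the spread between these samples, which may be technical. No treatment is named for any group, and the extraction text in the labels speaks of whole frozen lungs, whereas the design text speaks of sorted cells.

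PDGFs are secreted dimers that bind a pair of receptor tyrosine kinases. The A and C chains signal through PDGFRA, the B chain binds both receptors, and the D chain acts mainly through PDGFRB. The A and B chains are cut to their active form by furin-like proteases inside the cell, whereas the C and D chains leave the cell with an inhibitory CUB domain that tissue-type plasminogen activator (C) or urokinase and matriptase (D) remove. In the lung, epithelial PDGF-A acts on PDGFRA-bearing fibroblasts and is needed for the alveolar myofibroblasts that raise septa, and endothelial PDGF-B draws PDGFRB-bearing pericytes to capillaries.

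The promoter stretches of Pdgfd, Pdgfc and Pdgfra, the members with a single entry among the 4 of 6 found in the RefSeq promoter table (build GRCm38.p6), are shown because Pdgfd was higher and the other two were lower in TDonly than in ColGFP cells. Each is the 250 bases before the annotated start, on the plus strand, and the capitals mark the 4 letters GGAA (or TTCC on the other strand), the core that ETS factors read. Pdgfd lies at chr9:6168236-6168485, Pdgfc at chr3:81036166-81036415 and Pdgfra at chr5:75152001-75152250.
Pdgfd: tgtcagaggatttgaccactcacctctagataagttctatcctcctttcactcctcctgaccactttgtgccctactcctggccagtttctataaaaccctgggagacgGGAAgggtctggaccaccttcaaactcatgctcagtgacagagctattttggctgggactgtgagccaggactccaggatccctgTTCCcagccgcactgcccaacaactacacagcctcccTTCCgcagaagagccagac
Pdgfc: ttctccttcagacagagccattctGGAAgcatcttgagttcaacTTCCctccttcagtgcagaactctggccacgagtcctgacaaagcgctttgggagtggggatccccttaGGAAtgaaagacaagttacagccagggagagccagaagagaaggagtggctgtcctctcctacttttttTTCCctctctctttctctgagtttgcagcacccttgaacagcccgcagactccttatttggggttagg
Pdgfra: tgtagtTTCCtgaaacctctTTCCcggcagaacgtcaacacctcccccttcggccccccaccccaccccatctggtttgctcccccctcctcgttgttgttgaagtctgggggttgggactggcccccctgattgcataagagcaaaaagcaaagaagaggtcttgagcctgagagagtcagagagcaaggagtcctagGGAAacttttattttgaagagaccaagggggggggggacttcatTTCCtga
GGAA occurred 3 times in the Pdgfd stretch and 4 times each in those of Pdgfc and Pdgfra, and 93.4% of 32851 promoter stretches of the same length hold it. The forkhead letters TAAACA, searched on both strands because the sort used a forkhead gene, were in none of the 3 stretches and in 12.0% of all promoters. The longer ETS letters AGGAAG, which contain GGAA and are in 29.5% of all promoters, and the SP1 letters GGGCGG, in 32.7%, were also in none of the 3.

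The libraries held 17820969 to 26147475 counts, and 15550 genes were tested. Levels are given as CPM, read counts scaled to library size with TMM, a correction for differences in library composition. The sort was visible in its genes: Foxf1, listed as Foxf1a, averaged 101 CPM in DBL, 246 in TDonly and 59.7 in ColGFP, and Col1a1 averaged 11668 CPM in DBL, 1144 in TDonly and 7904 in ColGFP. Col1a1 was uneven within populations, at 373, 1493 and 1566 CPM in TDonly replicates 1, 2 and 3. In ColGFP replicates 1, 2 and 3 it was at 4939, 9593 and 9181 CPM. Replicate 1 stood apart in each population, with chi-square per degree of freedom of 53.8 to 98.8 against its own replicates and 5.32 to 14.6 for the other pairs. The replicate 1 libraries carry lower core numbers in their labels than the other 6 libraries (the second series), and no label calls this a batch. Differences were tested in edgeR by quasi-likelihood, and every adjusted p is a Benjamini-Hochberg value over all genes with a threshold of 0.05. DBL against ColGFP gave 14.5% of genes past it (8.04% up in DBL and 6.47% down), DBL against TDonly 29.9% (17.3% up in DBL and 12.6% down) and TDonly against ColGFP 45.5% (21.6% up in TDonly and 24.0% down). Genes down in DBL against ColGFP, 1006 with all libraries, numbered 581 to 669 without any 1 of the 3 DBL libraries, ColGFP replicate 2 or ColGFP replicate 3, and those down in DBL against TDonly were 1155 in place of 1965 without DBL replicate 4. Scaled to library totals, the higher share of these calls was 64.8% in place of 55.4% for DBL against ColGFP, 48.5% in place of 57.8% for DBL against TDonly, and 59.3% in place of 47.4% for TDonly against ColGFP. That scaling moved the median log2 fold change of all genes to 0.16 in place of 0.02 for TDonly against ColGFP; every member's call was the same under it.

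The family split by cell population. The ligand transcripts Pdgfb and Pdgfd were highest in the Foxf1 reporter cells, the receptor transcript Pdgfra and the ligand Pdgfc were highest in ColGFP cells, Pdgfrb was high in both collagen reporter populations, and Pdgfa was near 14 CPM everywhere. Between TDonly and ColGFP cells, where 45.5% of all genes passed, 2 members were higher and 3 lower in TDonly, and 1, Pdgfa, did not pass. Between DBL and ColGFP cells, where 14.5% of all genes passed, 2 were higher and 1 lower in DBL. That count of 3 was 1 without DBL replicate 3 (10.5% of all genes) and 2 without DBL replicate 1 or 4 (10.3% each). It was 4 without TDonly replicate 1 (17.5% of all genes). Between DBL and TDonly cells, where 29.9% of all genes passed, 2 were higher and 1 lower in DBL. The libraries of TDonly and ColGFP did not overlap for 6 of 6 members, where 56.1% of all genes did not overlap; for DBL and ColGFP this was so for 4 members (33.3% of all genes) and for DBL and TDonly for 3 (47.0% of all genes). The sort used a Foxf1 and a collagen reporter and none of these genes. Because the libraries are bulk samples, fewer cells of a type and less RNA per cell cannot be told apart.

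**Figure D1:**
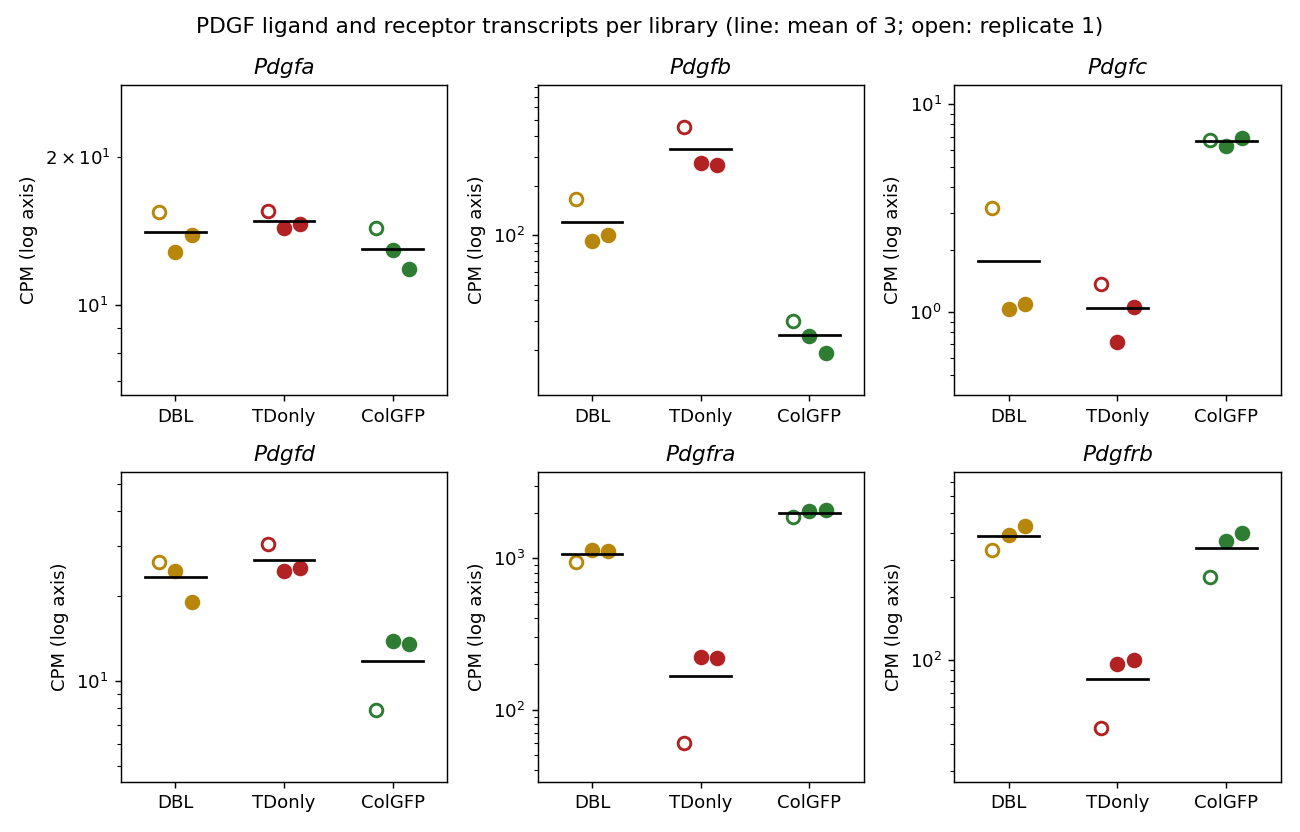
CPM of each PDGF gene on a log axis in the 3 libraries of DBL, TDonly and ColGFP cells; points are libraries, open points are replicate 1 and lines are means. Pdgfb and Pdgfra run in opposite directions between TDonly and ColGFP, and Pdgfrb is low only in the TDonly column of these 3 populations.

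Pdgfb, which encodes the B chain (chromosome 15, 79995874 to 80014977, minus strand, mm10), differed between all 3 populations. It measured 166, 91.8 and 100.3 CPM in DBL replicates 1, 3 and 4, 458, 277 and 267 CPM in TDonly replicates 1, 2 and 3, and 30.0, 24.4 and 19.1 CPM in ColGFP replicates 1, 2 and 3. The populations did not overlap, and DBL lay between the other two in every library. Pdgfb was 13.6-fold higher in TDonly than in ColGFP (log2 fold change 3.77 ± 0.32 SE, adjusted p = 1.17e-05). It was 4.88-fold higher in DBL than in ColGFP (log2 2.29 ± 0.30, adjusted p = 0.000841) and 2.79-fold lower in DBL than in TDonly (log2 -1.48 ± 0.29, adjusted p = 0.00360). In the second series these log2 values were 3.62, 2.16 and -1.46, and between the replicate 1 libraries 3.93, 2.47 and -1.46.

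Endothelial and platelet markers were measured beside Pdgfb, since both cell types make the B chain. The summed level of 12 endothelial markers, led by Cdh5, Vwf and Pecam1 in DBL and TDonly, was 4760 to 6151 CPM in DBL, 13950 to 15562 CPM in TDonly and 924 to 1348 CPM in ColGFP. All 12 were higher in TDonly than in ColGFP, with a median log2 fold change of 3.81 beside 0.02 over all genes. The summed level of 7 platelet and megakaryocyte markers, led by Itgb3, was 71.3 to 74.4 CPM in DBL, 77.8 to 105 CPM in TDonly and 35.4 to 48.2 CPM in ColGFP. Itgb3 made up most of each sum, averaging 47.3 CPM in DBL, 56.3 CPM in TDonly and 24.6 CPM in ColGFP. Other markers of this list were low: Pf4 averaged 1.61 CPM in DBL, 3.40 CPM in TDonly and 1.06 CPM in ColGFP. Treml1 averaged 0.483 CPM in DBL, 1.33 CPM in TDonly and 0.537 CPM in ColGFP. Of these 7 markers, 5 were higher in TDonly than in ColGFP and 1, Itgb3, in DBL than in ColGFP. No marker of either list was at 0 throughout a population, and the part of these cell types in the Pdgfb values was not tested.

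Pdgfd, which encodes the D chain, the ligand of PDGFRB (chromosome 9, 6168584 to 6378850, plus strand), was also higher in the Foxf1 reporter cells. It measured 26.3, 24.5 and 19.0 CPM in the DBL libraries, 30.6, 24.6 and 25.2 CPM in TDonly and 7.92, 13.9 and 13.5 CPM in ColGFP. DBL and TDonly overlapped and both lay above ColGFP. Pdgfd was 2.28-fold higher in TDonly than in ColGFP (log2 1.19 ± 0.22, adjusted p = 0.00164) and 1.98-fold higher in DBL than in ColGFP (log2 0.99 ± 0.22, adjusted p = 0.0146), while DBL and TDonly differed by log2 -0.20 ± 0.21 (adjusted p = 0.508). The call between DBL and ColGFP missed the threshold without DBL replicate 1 (adjusted p = 0.0512) or DBL replicate 3 (adjusted p = 0.0504). In the second series the log2 fold change was 0.83 for TDonly against ColGFP and 0.68 for DBL against ColGFP, and between the replicate 1 libraries it was 1.95 and 1.73; ColGFP replicate 1 was the lowest library. The protein-coding gene Ddi1 lies inside Pdgfd on the other strand and had 11 to 101 reads a library, against 177 to 786 for Pdgfd.

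Pdgfc, which encodes the C chain, a ligand of PDGFRA (chromosome 3, 81036416 to 81214040, plus strand), was the least abundant member and went the other way. It had 83, 23 and 27 reads in the DBL libraries, 35, 18 and 24 reads in TDonly and 150, 104 and 149 reads in ColGFP. In CPM these were 3.16, 1.04 and 1.09 in DBL, 1.36, 0.721 and 1.06 in TDonly, and 6.71, 6.29 and 6.88 in ColGFP. Every ColGFP library was above every library of the other populations. Pdgfc was 6.30-fold lower in TDonly than in ColGFP (log2 -2.66 ± 0.44, adjusted p = 0.000833) and 3.73-fold lower in DBL than in ColGFP (log2 -1.90 ± 0.42, adjusted p = 0.0142). Between DBL and TDonly it differed by log2 0.76 ± 0.44 (adjusted p = 0.230). DBL replicate 1 was the highest DBL library: without it the log2 fold change of DBL against ColGFP was -2.63, and the call missed the threshold without DBL replicate 3 (adjusted p = 0.0517) or DBL replicate 4 (adjusted p = 0.0607). Within the second series Pdgfc was at log2 -2.61 in DBL and -2.92 in TDonly, each against ColGFP; the replicate 1 libraries gave -1.08 and -2.30.

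Pdgfa, which encodes the A chain (chromosome 5, 138976014 to 138997370, minus strand), passed the test in no comparison. It measured 15.4, 12.8 and 13.9 CPM in DBL, 15.5, 14.3 and 14.6 CPM in TDonly and 14.3, 12.9 and 11.8 CPM in ColGFP. The 3 TDonly libraries were above the ColGFP libraries by a narrow margin, and DBL overlapped both. The log2 fold changes were 0.11 ± 0.12 for DBL against ColGFP (adjusted p = 0.638), -0.08 ± 0.12 for DBL against TDonly (adjusted p = 0.666) and 0.19 ± 0.12 for TDonly against ColGFP (adjusted p = 0.241). Epithelial cells are the main known source of PDGF-A in the lung, and 10 epithelial markers, led by Sftpc and Sftpb, summed to 6495 to 7104 CPM in DBL, 10071 to 13281 CPM in TDonly and 3544 to 10438 CPM in ColGFP, where replicate 1 was highest. Their part in the Pdgfa values was not tested.

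**Figure D2:**
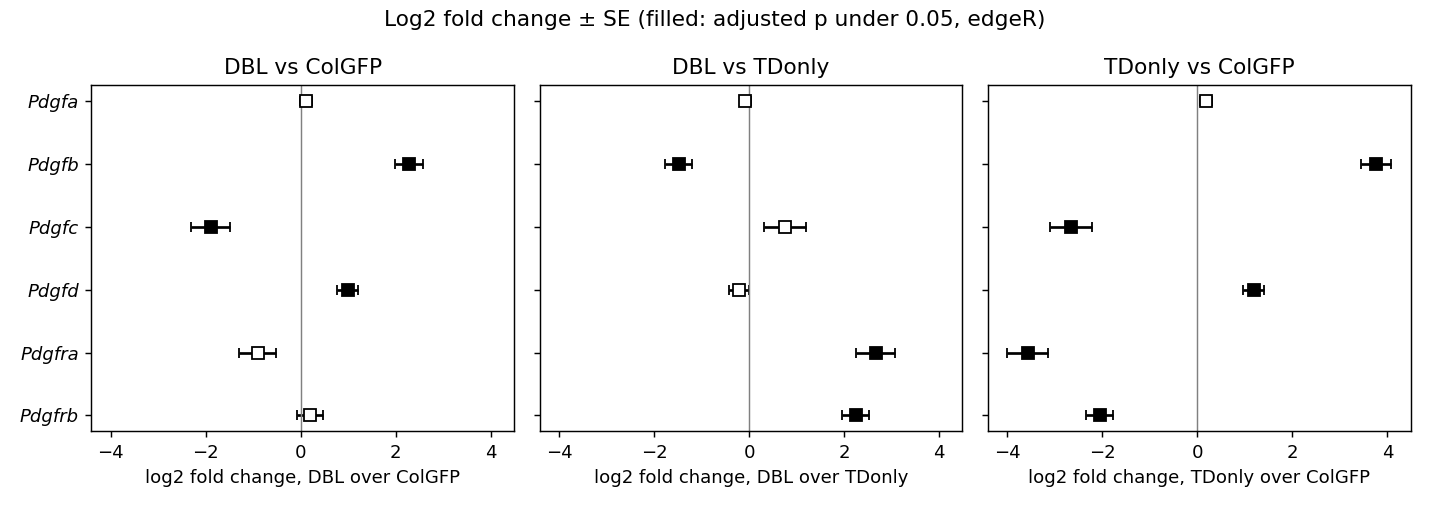
Log2 fold change (squares) with its standard error (bars) of each PDGF gene in the 3 comparisons; filled squares passed the adjusted p threshold of 0.05 in edgeR. Pdgfra and Pdgfrb both lie right of 0 for DBL over TDonly, at 2.67 and 2.25, and only Pdgfa is open in the panel of TDonly over ColGFP.

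Pdgfra, which encodes the receptor of the A, B and C chains (chromosome 5, 75152292 to 75198215, plus strand), was the most abundant member in the collagen reporter cells. It measured 940, 1141 and 1114 CPM in DBL, 60.1, 223 and 219 CPM in TDonly and 1858, 2047 and 2072 CPM in ColGFP. The populations did not overlap, and TDonly replicate 1 was far below the other TDonly libraries. Pdgfra was 11.9-fold lower in TDonly than in ColGFP (log2 -3.57 ± 0.43, adjusted p = 0.000108) and 6.36-fold higher in DBL than in TDonly (log2 2.67 ± 0.41, adjusted p = 0.00104). The DBL level was 1.87-fold below that of ColGFP (log2 -0.90 ± 0.39), a difference that did not pass with all 9 libraries in the fit (adjusted p = 0.171). It passed without TDonly replicate 1 (log2 -0.90, adjusted p = 0.000445), with only DBL and ColGFP in the fit (log2 -0.89, adjusted p = 0.00292) and in the second series (log2 -0.85, adjusted p = 6.23e-09). The second series leaves out replicate 1 of every population, so its p measures only the smaller spread between the remaining libraries (chi-square 5.32 to 14.6). Between the replicate 1 libraries the log2 values were -4.95 for TDonly against ColGFP, 3.97 for DBL against TDonly and -0.98 for DBL against ColGFP.

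Pdgfrb, which encodes the receptor of the B and D chains and marks pericytes and many fibroblasts (chromosome 18, plus strand), did not separate the collagen reporter populations. It measured 334, 394 and 435 CPM in DBL, 48.0, 96.5 and 100.1 CPM in TDonly and 249, 367 and 400.4 CPM in ColGFP. DBL and ColGFP overlapped, and every TDonly library was below them. Pdgfrb was 4.75-fold higher in DBL than in TDonly (log2 2.25 ± 0.29, adjusted p = 0.000384) and 4.16-fold lower in TDonly than in ColGFP (log2 -2.06 ± 0.28, adjusted p = 0.000264). DBL and ColGFP differed by log2 0.19 ± 0.27 (adjusted p = 0.717). Within the second series the log2 fold changes were 2.12 (DBL against TDonly), -1.99 (TDonly against ColGFP) and 0.12 (DBL against ColGFP), and between the replicate 1 libraries they were 2.80, -2.38 and 0.42.

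Mesenchymal markers were measured beside the receptors. The summed level of 12 alveolar fibroblast markers, led by Macf1, Inmt and Limch1, was 5399 to 6617 CPM in DBL, 2324 to 3694 CPM in TDonly and 18310 to 19715 CPM in ColGFP. Of these markers, 9 were lower in DBL than in ColGFP and none higher. Macf1 averaged 2990 CPM in DBL, 2140 CPM in TDonly and 9173 CPM in ColGFP, and made up most of the TDonly sum. Tcf21 averaged 67.8 CPM in DBL, 11.7 CPM in TDonly and 124 CPM in ColGFP. For 12 adventitial fibroblast markers, led by Dcn and Col14a1 in DBL, the sums were 7770 to 9776 CPM in DBL, 2081 to 2258 CPM in TDonly and 2074 to 5437 CPM in ColGFP. The TDonly sum was led instead by Ly6a and Cd34, at 764 and 555 CPM on average, with Dcn at 252 CPM. Of these 12 markers, 2 were higher and 8 lower in TDonly than in ColGFP. For 12 smooth muscle and myofibroblast markers they were 1262 to 1443 CPM in DBL, 371 to 492 CPM in TDonly and 4055 to 6997 CPM in ColGFP, and for 8 mesothelial markers 689 to 795 CPM in DBL, 104 to 353 CPM in TDonly and 239 to 307 CPM in ColGFP. The 12 pericyte markers summed to 1111 to 1175 CPM in DBL, 821 to 889 CPM in TDonly and 902 to 926 CPM in ColGFP, and of them 4 were higher and 7 lower in TDonly than in ColGFP and 1, Rgs5, did not pass. The lower ones included the channel subunits Abcc9 and Kcnj8, at log2 -3.53 ± 0.44 and -4.26 ± 0.28, and the higher ones were Mcam, also an endothelial gene, at 2.97 ± 0.27, Higd1b at 1.41 ± 0.32, Trpc6 at 1.26 ± 0.20 and Cox4i2 at 0.93 ± 0.29. Their levels ranged widely: Abcc9 averaged 373 CPM in DBL, 31.1 CPM in TDonly and 360.2 CPM in ColGFP. Rgs5 was at 5.08 to 10.4 CPM and Higd1b at 0.554 to 2.11 CPM over the 9 libraries. Mcam averaged 260 CPM in DBL, 612 CPM in TDonly and 77.8 CPM in ColGFP, and made up most of the TDonly sum. The 10 leukocyte markers summed to 1282 to 1466 CPM in DBL, 1974 to 2802 CPM in TDonly and 899 to 2368 CPM in ColGFP. Lyz2, which alveolar type 2 epithelial cells also express, made up most of that sum, at 1319 CPM in DBL, 2263 CPM in TDonly and 1368 CPM in ColGFP on average, while the pan-leukocyte gene Ptprc averaged 22.9 CPM in DBL, 56.1 CPM in TDonly and 36.5 CPM in ColGFP. The part of these cell types in the receptor values was not tested.

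Ratios of 2 transcripts within a library, which do not depend on scaling, showed how the balance of the family differed. The count ratio of Pdgfra to Pdgfrb was 2.81, 2.90 and 2.56 in DBL, 1.25, 2.31 and 2.19 in TDonly and 7.45, 5.58 and 5.18 in ColGFP. That of Pdgfb to Pdgfa was 10.8, 7.14 and 7.23 in DBL, 29.4, 19.3 and 18.3 in TDonly and 2.09, 1.89 and 1.62 in ColGFP. Pdgfd to Pdgfc was 8.28, 23.1 and 17.1 in DBL, 22.2, 33.2 and 23.4 in TDonly and 1.18, 2.20 and 1.96 in ColGFP. The populations did not overlap for the first and second of these ratios, while DBL and TDonly overlapped for Pdgfd to Pdgfc. An exact permutation test of the F statistic over the 1680 assignments of 9 libraries to 3 populations gave p = 0.00357 for the first and second ratio, the smallest p it can give, and p = 0.00714 for the third (adjusted over the 3 ratios, p = 0.00536, 0.00536 and 0.00714). It tests the 3 populations together and names no pair of them.

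**Figure D3:**
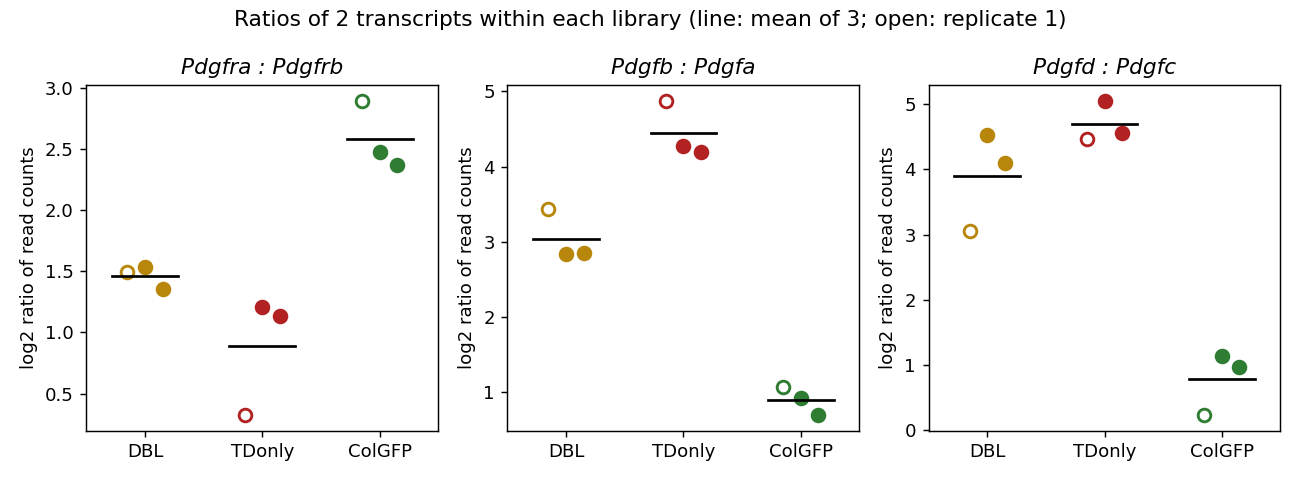
Log2 ratio of read counts of 2 PDGF genes within each library of DBL, TDonly and ColGFP cells; points are libraries, open points are replicate 1 and lines are means. ColGFP stands apart in all 3 panels, highest for Pdgfra to Pdgfrb (2.37 to 2.90) and lowest for both ligand ratios.

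Levels of different genes were compared per kilobase of merged exons. In DBL cells the order was Pdgfra (106 ± 10.9 CPM per kb, SD, n = 3), Pdgfrb (70.7 ± 9.22), Pdgfb (28.7 ± 9.82), Pdgfd (7.38 ± 1.21), Pdgfa (4.50 ± 0.420) and Pdgfc (0.347 ± 0.238), and no neighbours overlapped. In TDonly cells Pdgfb led at 80.2 ± 25.8 CPM per kb, followed by Pdgfra at 16.7 ± 9.28, Pdgfrb at 14.9 ± 5.31 and Pdgfd at 8.49 ± 1.06; Pdgfra overlapped Pdgfrb, and Pdgfrb overlapped Pdgfd. Pdgfa (4.75 ± 0.204) and Pdgfc (0.206 ± 0.0632) came last there. In ColGFP cells Pdgfra was at 199 ± 11.7 CPM per kb, Pdgfrb at 61.9 ± 14.5, Pdgfb at 5.89 ± 1.30, Pdgfa at 4.18 ± 0.399, Pdgfd at 3.73 ± 1.06 and Pdgfc at 1.30 ± 0.0598; Pdgfa and Pdgfd overlapped. The same orders held with the length of the longest transcript, but some separations did not: Pdgfd then overlapped Pdgfa in DBL, and in ColGFP Pdgfb overlapped Pdgfa while Pdgfa and Pdgfd no longer overlapped. Of the summed ligand level per kb, Pdgfb made up 69.4 ± 4.78% in DBL, 85.2 ± 2.52% in TDonly and 38.8 ± 6.77% in ColGFP, and Pdgfa made up 11.3 ± 1.90% in DBL, 5.29 ± 1.13% in TDonly and 27.6 ± 1.53% in ColGFP. Pdgfra made up 60.1 ± 1.54% of the summed receptor level in DBL, 50.3 ± 8.42% in TDonly and 76.5 ± 3.36% in ColGFP. All these shares used merged exons and depend on that choice, since Pdgfra has 10024 merged bases but 6834 in its longest transcript. With the longest transcript, TDonly cells averaged 24.5 CPM per kb for Pdgfra and 15.0 for Pdgfrb.

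The place of DBL between the single-reporter populations differed from member to member. On the linear CPM scale the Pdgfb level of DBL lay 30.7% of the way from the ColGFP mean to the TDonly mean (23.1 to 38.4% when any 1 library was left out), and the 12 endothelial markers lay at 27.3 to 34.9%. Pdgfra lay at 50.8% (47.4 to 52.9%), Pdgfd at 76.6% (66.4 to 90.8%) and Pdgfc at 87.2% (80.6 to 99.7%). Pdgfrb lay outside the span, beyond the ColGFP level, at -18.8% (-34.9 to -1.24%), although DBL and ColGFP did not differ by the test. For Pdgfa the span was too small to place DBL (17.7 to 89.9%). These places are descriptions with no test, and the 3 populations share their libraries across them.

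**Figure D4:**
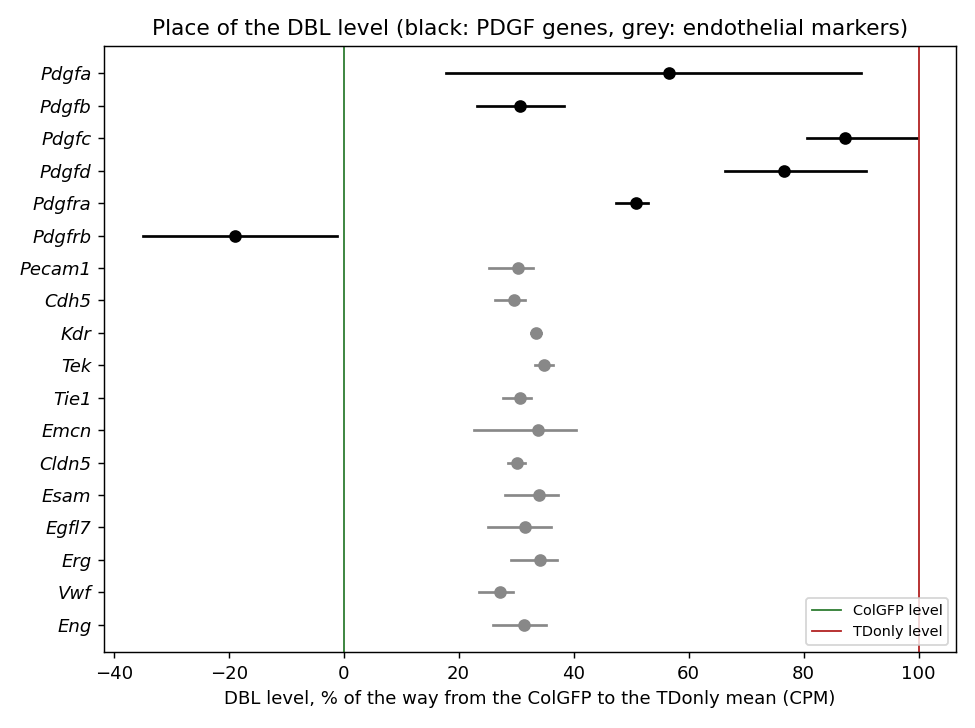
Place of the DBL mean between the ColGFP mean (0%) and the TDonly mean (100%) on the linear CPM scale for the PDGF genes (black) and 12 endothelial markers (grey); lines span the values with each library left out in turn. Pdgfb, at 30.7%, falls among the endothelial markers, and Pdgfrb falls left of 0.

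Genes that process or bind PDGFs, a list of 13, all passed between TDonly and ColGFP, where 45.5% of all genes passed. Of them, 5 were higher and 8 lower in TDonly (median log2 fold change -1.45, beside 0.02 over all genes). With each library left out in turn, 11 to 13 of the 13 passed, while the share of all genes ran from 36.1% to 46.6%. Lrp1, the large endocytic receptor that associates with PDGFRB, measured 4233, 5299 and 5740 CPM in DBL, 240.4, 948 and 946 CPM in TDonly and 5497, 7284 and 7886 CPM in ColGFP, and was lower in TDonly at log2 -3.28 ± 0.47 (adjusted p = 0.000322). Pdgfrl, which encodes a receptor-like protein without a kinase, followed the same order, at 52.4 ± 14.9 CPM in DBL, 3.99 ± 1.64 CPM in TDonly and 53.8 ± 15.8 CPM in ColGFP (SD, n = 3 each), with log2 3.72 ± 0.38 for DBL against TDonly and -3.76 ± 0.38 for TDonly against ColGFP. The matrix proteins Sparc and Thbs1, which bind PDGF, were lower in TDonly than in ColGFP at log2 -1.15 ± 0.17 and -3.84 ± 0.26, and so was the proteoglycan Cspg4, a PDGF-AA binding protein of pericytes, at -1.79 ± 0.21. The activating proteases divided. Plat, the tissue-type plasminogen activator that activates the C chain, was lower in TDonly than in ColGFP at log2 -1.73 ± 0.20 (adjusted p = 8.89e-05), and Plau, the urokinase that activates the D chain, was higher at 1.35 ± 0.26 (adjusted p = 0.00234). Matriptase St14 and Furin were higher in TDonly at 0.98 ± 0.27 and 0.43 ± 0.12, and the furin-like protease Pcsk5 was lower at -1.45 ± 0.14. Nrp1, a co-receptor for VEGF that also binds PDGFs, was higher in TDonly at 1.24 ± 0.11, and its relative Nrp2 lower at -1.59 ± 0.22.

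Between DBL and ColGFP, 3 of the 13 were higher and 3 lower in DBL (14.5% of all genes passed). Nrp1 averaged 839 ± 36.1 CPM in DBL and 539 ± 44.9 CPM in ColGFP (log2 0.64 ± 0.10, adjusted p = 0.00311), the PDGF receptor scaffold Slc9a3r1 was higher at 1.39 ± 0.20, and Plau was higher at 0.95 ± 0.26 (adjusted p = 0.0399). Thbs1, Pcsk5 and Nrp2 were lower at -2.44 ± 0.24, -1.33 ± 0.14 and -1.24 ± 0.22. Plat and Cspg4 did not pass (log2 -0.62 ± 0.20, adjusted p = 0.0664, and log2 -0.67 ± 0.21, adjusted p = 0.0610). Between DBL and TDonly, where 29.9% of all genes passed, 6 were higher and 1, Nrp1, was lower in DBL (median log2 fold change 0.51, beside -0.04 over all genes). Lrp1 was higher at 2.84 ± 0.46, Sparc at 1.40 ± 0.17, Thbs1 at 1.40 ± 0.23, Cspg4 at 1.12 ± 0.21 and Plat at 1.11 ± 0.20. With the second series alone, 10 of the 13 passed between DBL and ColGFP, where 28.9% of all genes did, and 11 between DBL and TDonly, where 43.1% did; both all-gene shares were also above those of the 9 libraries.

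**Figure D5:**
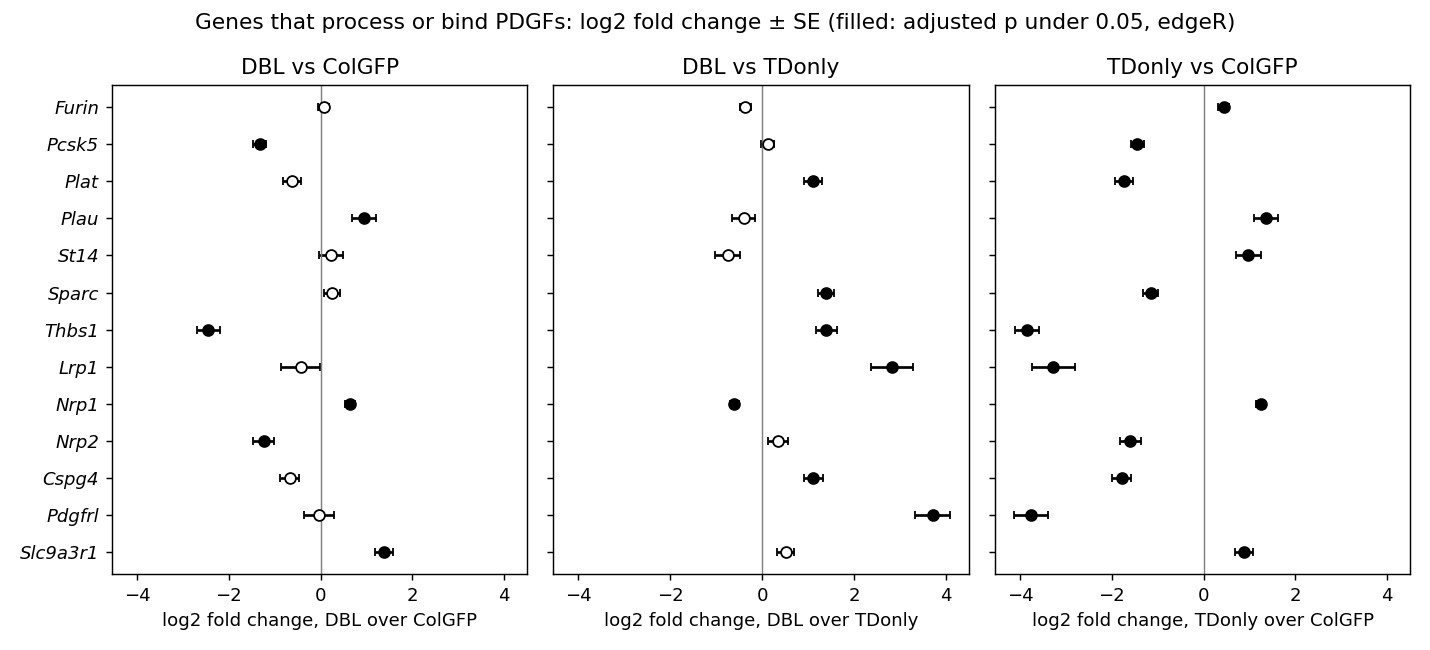
Log2 fold change (points) with its standard error (bars) of 13 genes that process or bind PDGFs in the 3 comparisons; filled points passed the adjusted p threshold of 0.05 in edgeR. All 13 points are filled for TDonly over ColGFP, where 45.5% of all genes passed, with Thbs1 (-3.84) and Pdgfrl (-3.76) the farthest left.

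Genes acting just downstream of the receptors showed smaller and mixed differences. Of 21 such genes, 9 were higher and 7 lower in TDonly than in ColGFP (median log2 fold change 0.13). Against ColGFP, 4 were higher and 2 lower in DBL (median 0.06), and against TDonly, 5 were higher and 7 lower in DBL (median -0.20). Over all genes 45.5% passed for TDonly against ColGFP, 14.5% for DBL against ColGFP and 29.9% for DBL against TDonly. Pik3cb, a catalytic subunit of PI3-kinase, averaged 40.8 ± 2.87 CPM in DBL, 97.5 ± 1.14 CPM in TDonly and 16.2 ± 3.02 CPM in ColGFP, and phospholipase Plcg1, which docks on activated receptors, 148 ± 11.1 CPM in DBL, 280 ± 28.6 CPM in TDonly and 95.9 ± 3.22 CPM in ColGFP (SD, n = 3 each); both passed in all 3 comparisons. The Src-family kinase Yes1 was higher in TDonly than in ColGFP at log2 1.37 ± 0.12 and the adaptor Grb10 lower at -1.16 ± 0.09. Pik3r1, the regulatory subunit of PI3-kinase, was lower in DBL than in ColGFP at -0.55 ± 0.09, and Pik3r2 higher in DBL than in TDonly at 0.94 ± 0.12. With the second series alone, 10 of the 21 passed between DBL and ColGFP in place of 6, while the share of all genes passing was 28.9% in place of 14.5%.

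Of 12 genes that damp the receptors, 5 were higher and 4 lower in TDonly than in ColGFP (median log2 fold change 0.11; 45.5% of all genes passed). In DBL against ColGFP 2 were higher and 1 lower (median 0.10; 14.5% of all genes), and in DBL against TDonly 3 were higher and 5 lower (median -0.02; 29.9% of all genes). The phosphatases Ptpn12 and Ptprj were higher in TDonly than in ColGFP at log2 1.27 ± 0.10 and 1.38 ± 0.15. The ubiquitin ligases divided: Cbl was higher in TDonly than in ColGFP at 0.72 ± 0.08 and Cblb lower at -1.23 ± 0.12, and Cblb was also lower in DBL than in ColGFP at -0.81 ± 0.12. Sh3kbp1, a Cbl-binding adaptor, was higher in DBL than in TDonly at 1.54 ± 0.24. The 8 calls between DBL and TDonly were 4 without TDonly replicate 2 and 4 without TDonly replicate 3, where 24.2% of all genes passed in each case.

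Among 8 structural relatives of the family, 3 were higher and 3 lower in TDonly than in ColGFP (median log2 fold change 0.34; 45.5% of all genes passed). Kit, a class III receptor like the PDGF receptors, averaged 242 ± 8.49 CPM in DBL, 674 ± 9.94 CPM in TDonly and 67.6 ± 13.2 CPM in ColGFP (SD, n = 3 each), the same order as Pdgfb and the reverse of Pdgfra. Vegfa and Vegfc, ligands of the VEGF branch, were higher in TDonly than in ColGFP at log2 1.26 ± 0.12 and 1.92 ± 0.18, and Figf, which encodes VEGF-D, was lower at -3.36 ± 0.23. Between DBL and ColGFP, Kit, Vegfc and Vegfa were higher in DBL at 1.84 ± 0.13, 1.08 ± 0.18 and 0.53 ± 0.12, and none was lower (median of the 8 genes 0.13; 14.5% of all genes passed). Between DBL and TDonly, Figf and Pgf were higher in DBL at 2.82 ± 0.22 and 2.20 ± 0.34, and Kit, Vegfa and Vegfc were lower (median of the 8 genes -0.78; 29.9% of all genes passed).

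The genes whose log2 CPM most resembled each member over the 9 libraries (prior count 2) are given as a description, since all points share the same libraries and populations. Pdgfb was most like Stab1, Apold1 and Shroom4 (Pearson r 0.999, 0.999 and 0.998). Pdgfra was most like Plxdc2, the fibroblast transcription factor Tcf21 and Mrc2 (each 0.999), and Pdgfrb most like Sept5, Fndc1 and Enpp3 (0.999, 0.999 and 0.998). Pdgfc was most like Tmem176b, Lgmn and Tbc1d1 (0.984, 0.977 and 0.973), Pdgfd like Sept11, Rangap1 and Rftn1 (0.985, 0.984 and 0.983) and Pdgfa like Pvrl2, Jub and Zc3h13 (0.973, 0.956 and 0.955). Within the family r was 0.945 for Pdgfra with Pdgfrb, 0.858 for Pdgfb with Pdgfd and -0.900 for Pdgfb with Pdgfra.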

How the data were processed

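Raw read counts per gene symbol were deposited by the authors without normalisation; the submitters' processing notes name cutadapt, TopHat, HTSeq and the mm10 build with no version. Neither annotation nor strand setting is stated there, so reads of the 5 members that overlap another annotated gene, 4 of them an antisense transcript, cannot be separated from it. The design text names a ribosomal RNA depletion. Columns were matched to samples by core number, and 3 columns matching no sample were not used.

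Genes kept by edgeR's filterByExpr (minimum count 10) numbered 15550. A negative binomial quasi-likelihood model of all 9 libraries with TMM factors (edgeR 4.0.16, R 4.3.3; 6 residual and 3.42 prior degrees of freedom) gave 3 two-sided contrasts, Benjamini-Hochberg adjusted over all genes. Standard errors are the log2 fold change over the square root of F. The procedure was tested on simulated data. Ratios used counts plus 0.5. Gene positions and lengths came from GENCODE M21 (GRCm38). All 149 list entries matched.

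The members and gene lists were chosen with earlier results of these data known. Named genes were the 6 members, up to 4 per pathway list by adjusted p with Cspg4, Lrp1, Plat, Plau and Nrp1 added, up to 3 markers per list by abundance, and the 3 genes most like each member at 10 CPM or more; other pathway and pericyte genes named, and the promoters shown, were chosen after their values were seen. Alternatives were DESeq2 1.42.0 size factors or test, library totals, limma-voom (limma 3.58.1), no filter, 10 CPM in 3 libraries, only the populations compared, replicate or core number series as a term, the second series alone, and each library left out. Depth limits Pdgfc, at 18 to 150 reads; no interval was computed, since the spread between replicates was used.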

Additional observations from a re-analysis of the deposited data

How the results depend on the processing

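Of the members' log2 fold changes under alternatives that kept all or a fixed subset of libraries, 175 kept direction and side of the threshold and 2 newly passed; with 1 library left out, 157 kept them, 4 missed the threshold and 1 newly passed, and none changed sign. Pdgfra in DBL against ColGFP was the result that newly passed, at log2 -0.89 with only the 2 populations fitted, -0.85 in the second series and -0.90 without TDonly replicate 1; it ran from -0.96 to -0.82 with each library left out. With each library left out, Pdgfc in DBL against ColGFP ran from -2.63 to -1.60 and Pdgfd from 0.79 to 1.15. The count of members called there ran from 1 (without DBL replicate 3, 10.5% of all genes) to 4 (without TDonly replicate 1, 17.5%). The 10 CPM filter removed Pdgfc. Calls in the second series moved to 10 (processing and binding) and 10 (receptor-proximal) for DBL against ColGFP and 11 (processing and binding) for DBL against TDonly; the cause was not tested. Damper calls for DBL against TDonly ran from 4 to 7 with each library left out. In the second series each ratio gave exact p = 0.0667, the smallest that 90 arrangements allow. Depth limits Pdgfc most.

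The replicate numbers did not pair the libraries throughout. Each gene's population mean of log2 CPM was subtracted, and the deviations that remained were correlated between libraries of different populations. These deviations correlated at 0.0156 to 0.527 in 7 same-numbered pairs. Replicate 1 libraries correlated better with each other than with later replicates of the other populations. Their values were 0.527 for DBL and TDonly, 0.102 for ColGFP and TDonly and 0.0926 for DBL and ColGFP. The last 2 were below the 0.340 of DBL replicate 4 with TDonly replicate 3. DBL replicate 3 correlated better with TDonly replicate 2 (0.306) than with TDonly replicate 3 (0.232). With the replicate number as a block, genes higher and lower in DBL than in ColGFP were 955 and 626 in place of 1250 and 1006. In that blocked fit Pdgfb was at log2 2.31, Pdgfc at -1.90 and Pdgfd at 1.16, and no member's call changed. DBL replicate 4 shares its number with no other library and adds nothing to the blocked contrasts. The blocked fit therefore cannot decide whether libraries are paired in another way. Without a block, genes higher and lower in DBL than in ColGFP were 2543 and 1969 in the second series, 949 and 669, 1003 and 660, and 1041 and 581 without DBL replicate 1, 3 and 4 in turn, 861 and 617 without ColGFP replicate 2, and 845 and 623 without ColGFP replicate 3. Genes higher and lower in DBL than in TDonly were 2324 and 1155 without DBL replicate 4, in place of 2692 and 1965.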
